A study of Mus musculus with 8 samples.

Results

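The transcripts described here encode the proteins of the centromere and kinetochore in mouse oocytes at nuclear envelope breakdown (NEBD). They were chosen by gene symbol: the symbols that begin with Cenp, the subunits of the NDC80, MIS12, KNL1, RZZ and Ska complexes, and the factors that load the centromeric histone CENP-A. This rule found 34 of the 25574 genes in the expression table. Of the symbols named in the rule, 4 had no row under that name (Knl1, Mis18a, Ska2 and Ska3). Knl1 was present, and is described here, under its older symbol Casc5, while Mis18a, Ska2 and Ska3 were not analysed here. The symbol rule also takes in Cenpj, whose product CENP-J is known as a centriole assembly protein and not as a kinetochore subunit.

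Fully grown oocytes of CD1 mice aged 8 weeks were collected 46 h after 5 IU of pregnant mare serum gonadotrophin (PMSG), a hormone that stimulates follicle growth, and were held in meiotic arrest with 100 µM IBMX, a phosphodiesterase inhibitor. They were then cultured for 180 min without IBMX to reach the NEBD stage, and both groups of libraries come from oocytes exposed to 0.1 mg/mL cycloheximide for 10 min, which holds ribosomes on the mRNA. Lysates of 200 pooled oocytes were spun through a 10 to 50% sucrose gradient, and RNA of the lighter fractions gave the non-polysomal (NP) dataset and that of the heavier fractions the polysomal (P) dataset. Each dataset had 4 replicate libraries, so a library stands for a pool of oocytes and not for 1 animal, and no untreated or other stage was compared. The comparison of P with NP asks which mRNAs sedimented with polysomes and which with lighter material at this stage. The NP pool also holds the peaks of ribosomal subunits and single ribosomes, and the topmost fraction was in neither pool. The study could not exclude that stored particles with ribosomes sedimented with the polysomes.

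The kinetochore is the protein assembly that ties each chromosome to spindle microtubules. CENP-A, a variant of histone H3, marks the centromere, the constitutive inner kinetochore (CENP-C and the CENP-H to CENP-X proteins) sits on this chromatin, and the outer KMN network (KNL1, MIS12 and NDC80 complexes) binds the microtubules and the spindle checkpoint proteins. Fully grown oocytes do not transcribe, so the proteins made during meiotic maturation come from stored maternal mRNAs, and the cytoplasmic polyadenylation element (CPE), a short U-rich motif in the 3′ UTR, is a known site of control of such mRNAs.

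Values are given as FPKM, fragments scaled for the length of the transcript and for the size of the library. Levels of different genes are set side by side on this scale, but differences between genes in the amplification of cDNA were not measured. The number of reads to which each library was scaled, recovered from the steps between FPKM values, lay between 1299377 and 7594638, so that 1 read on a transcript of 1 kb was worth 0.132 to 0.77 FPKM. Reads were recovered for all 34 transcripts, from 19 reads for Cenpk to 17461 for Cenpn over the 8 libraries, and 4 of the 34 rested on fewer than 100 reads (Oip5, Cenpb, Cenpw and Cenpk). The annotated gene length fitted the FPKM steps for 13 of the 34, and for 21 another length was found by search. The search took the shortest length that fitted, so the read numbers of these 21 are the lowest that fit. Ratios between genes therefore also depend on the lengths used. The 11 oocyte marker genes, among them Zp3, Gdf9 and Mos, had a summed level of 7168 to 15087 FPKM in NP and 9337 to 32387 FPKM in P. The 13 cumulus and granulosa cell markers summed to 15.3 to 93.9 FPKM in NP and 2.38 to 64.0 FPKM in P, with only Nr5a2 and Cyp19a1 above a mean of 1 FPKM in either dataset, while Foxl2, Amhr2, Inhba, Has2, Ptx3 and Slc38a3 were listed at 0 in all 8 libraries. In the annotation, 9 of the transcripts share exon sequence with another gene, 8 of them on the opposite strand (Cenpk, Cenpo, Cenpp, Cenpq, Cenpt, Mis12, Oip5 and Zwilch), and reads in the shared stretches cannot be assigned by strand. Casc5 was not matched for this check. A level is a mean over the pooled oocytes, so fewer oocytes holding a transcript and less of it in each oocyte cannot be told apart.

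Transcripts of the kinetochore were present at very unequal levels. All 34 had a mean above 0.1 FPKM in at least 1 dataset and were tested, and the highest mean over the 8 libraries, that of Cenpn, was 1095 times the lowest, that of Cenpk. Their median level was 12.7 FPKM against 5.38 FPKM over the 14292 genes tested, and 24 of the 34 lay above the latter. The mean exceeded 50 FPKM for 8 of them (Cenpn, Dsn1, Spc24, Zw10, Cenpj, Cenpo, Hjurp and Cenpv), lay between 10 and 50 FPKM for 12, between 1 and 10 FPKM for 11 and at or under 1 FPKM for 3 (Cenpb, Casc5 and Cenpk). Without P replicate 4 the means of Cenpj and Cenpv were 39.8 and 25.8 FPKM in place of 91.7 and 50.7 FPKM, and that of Spc24 was 84.3 FPKM. Hjurp also fell below 50 FPKM without that library and Cenpm rose above it, so that 6 transcripts exceeded this level. Over all omissions of a single library the number was 6 to 9. Of the 34, 23 were above 0 in every library, where 50.4% of all genes tested were. Together the 34 transcripts summed to 962 to 1169 FPKM in the NP libraries, or 0.165 to 0.255% of the summed FPKM, and to 781 to 2032 FPKM in the P libraries, or 0.2 to 0.319%.

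**Figure D1:**
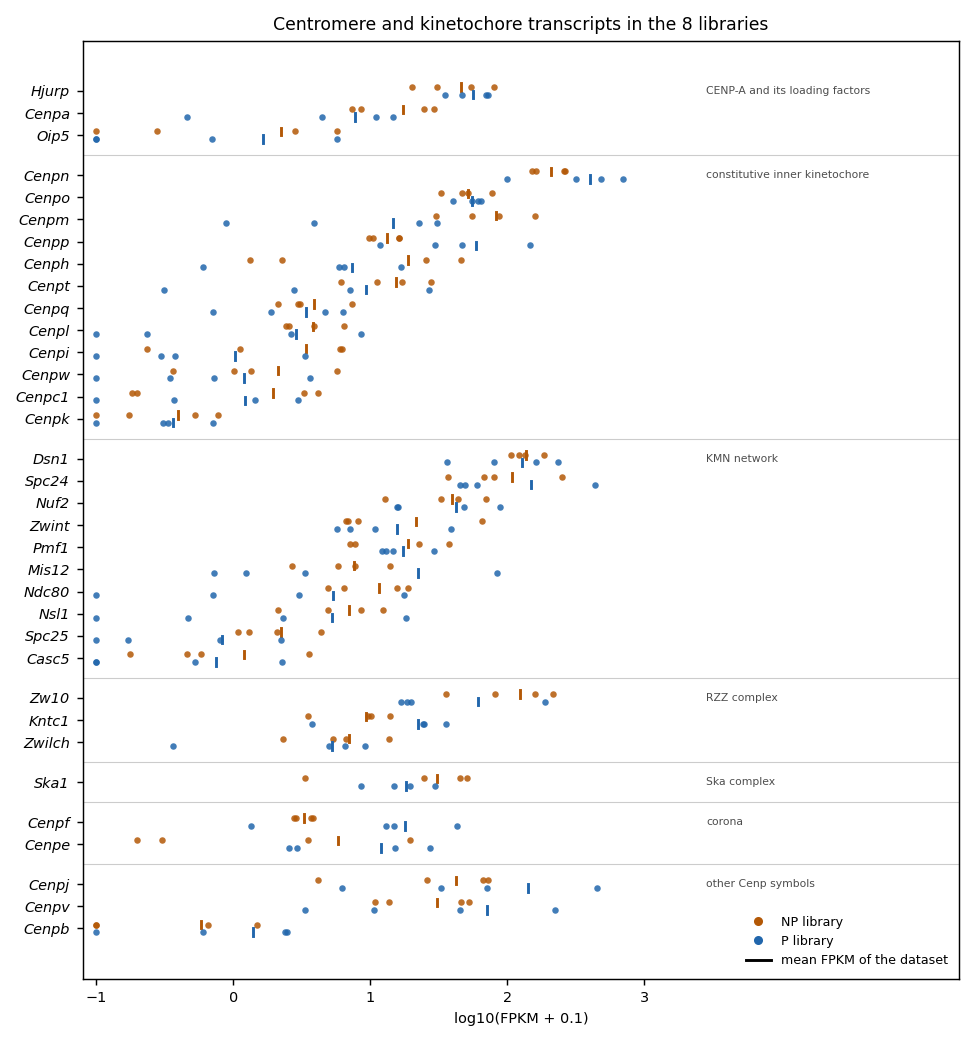
FPKM of each of the 34 transcripts in the 4 NP and 4 P libraries as log10(FPKM + 0.1), grouped by role, with points for single libraries and a bar for each dataset's mean. Cenpn has the highest mean and Cenpk the lowest, and the NP and P points of each transcript overlap.

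Levels differed widely between some subunits that work in 1 complex. Ratios between unrelated genes were not set beside these, so such differences are not shown to be particular to these complexes. Within the NDC80 complex, which grips the microtubule, Spc24 exceeded its direct partner Spc25 in 8 of 8 libraries, with 128 against 1.42 FPKM on average, a ratio of 90.1 that was 55.3 without P replicate 4. The pair at the microtubule end of this complex was closer, with Nuf2 at 40.9 and Ndc80 at 8.31 FPKM, and Nuf2 was the higher in 6 of 8 libraries. Spc24 lay above Nuf2 in only 5 of 8 libraries. In the MIS12 complex, the bridge between inner and outer kinetochore, Dsn1 had a mean 7.43 times that of Pmf1 and 22.0 times that of Nsl1 and exceeded both in 8 of 8 libraries. Pmf1 and Mis12 were close, with a ratio of means of 1.21. Zwint, which binds KNL1, was higher than Casc5 in 8 of 8 libraries, with mean levels of 18.5 and 0.871 FPKM and a ratio of 21.3, which was 12.1 without NP replicate 4 and 40.5 without NP replicate 3.

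The inner kinetochore showed the same inequality. Cenpn, whose product recognises the CENP-A nucleosome, was 93.6 times as high as Cenpl, the gene of its binding partner, and the higher in 8 of 8 libraries. In the CENP-H/I/K/M group, Cenpm exceeded Cenpi by 23.0 times and Cenpk by 176 times on average, each in 8 of 8 libraries, and the first ratio was 13.7 without NP replicate 2. Cenpo and Cenpp were 15.1 and 10.1 times as high as Cenpq, again in 8 of 8 libraries, the latter 5.27 times without P replicate 1. The order of Cenpo and Cenpp was not stable, with Cenpo higher in 4 of 4 NP and 2 of 4 P libraries. An equal split of the P libraries was seen in the RZZ complex, which recruits dynein and checkpoint proteins, where Zw10 exceeded Kntc1 in 4 of 4 NP and 2 of 4 P libraries. Hjurp, the gene of the CENP-A chaperone, was above Cenpa itself in 7 of 8 libraries, with mean levels of 50.9 and 12.4 FPKM. The NP and P pools were cut from the same gradients, so these 8 libraries are not 8 independent samples.

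**Figure D2:**
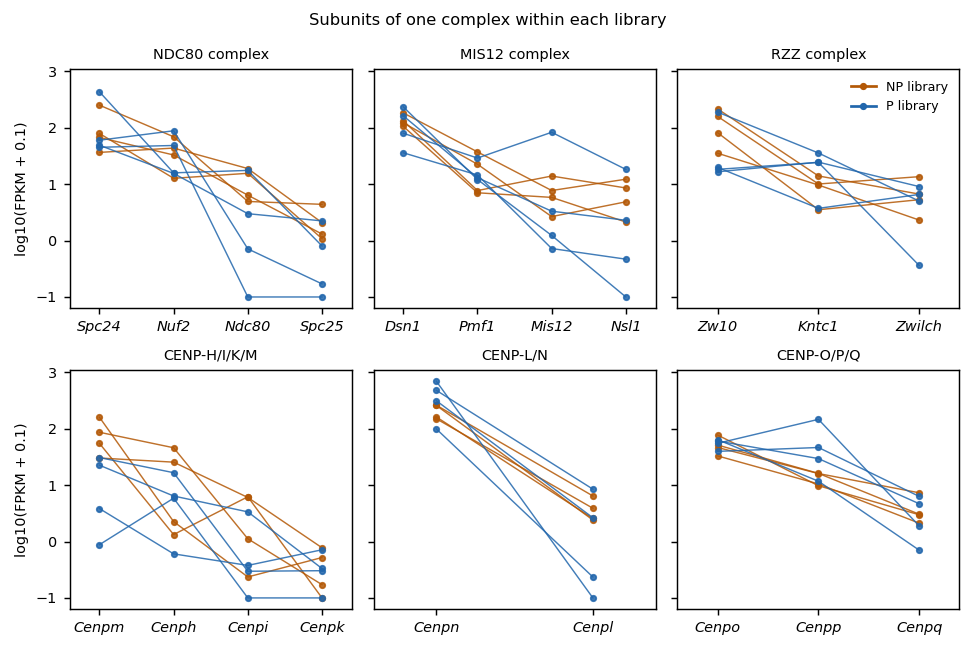
FPKM of the subunits of single complexes as log10(FPKM + 0.1), with 1 line for each of the 8 libraries, orange for NP and blue for P. Spc24 lies above Spc25, Dsn1 above Nsl1 and Cenpn above Cenpl in all 8 libraries.

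A CPE close to the polyadenylation signal was found for 4 of the transcripts. In the GRCm38 assembly and 1 annotated GENCODE transcript per gene, all 34 had a 3′ UTR, with a median length of 588 bases against 963 bases over all genes tested that had one. A polyadenylation signal (AATAAA or ATTAAA) was in the last 50 bases of the transcript for 26 of the 34, or 76.5%, against 78.0% of all 12756 genes with a 3′ UTR. The CPE letters, TTTTAT or TTTTAAT, were searched on the transcript's own strand within 100 bases before the signal, since this arrangement is the known one for cytoplasmic polyadenylation, and 4 of the 26 (15.4%) held them against 19.7% of the 9949 genes with a signal. These sites are shown because they lie in the mRNAs of a highly abundant inner kinetochore transcript (Cenpn) and of 3 transcripts with fewer reads. Capitals mark the CPE letters and, for Cenph, also the AATAAA signal. The last signal before the transcript end was the one used, and the Cenph stretch also holds an earlier AATAAA, left in lower case. The stretch of Cenph is on the minus strand at chr13:100759705-100759734, that of Cenpi on the plus strand at chrX:134362511-134362540, that of Cenpn on the plus strand at chr8:116941429-116941458 and that of Ndc80 on the minus strand at chr17:71496164-71496193, all inside the 3′ UTR of the last exon.
Cenph: TTTTATaacttaaggaataaaaagAATAAA
Cenpi: aaagaagttccaTTTTATtgatttgatttc
Cenpn: cttctcgtgatcTTTTATccatggcacact
Ndc80: tataacatagtaTTTTATccccaaattatg
From the first base of the CPE to the first base of the signal there were 24 bases in Cenph, 42 in Cenpn, 58 in Ndc80 and 95 in Cenpi. A match of letters describes the sequence and does not show that a factor binds it. The 4 transcripts with the letters had log2 fold changes of P over NP of 0.66 (Cenpn), −0.69 (Cenph), −1.03 (Cenpi) and −1.73 (Ndc80), with a median of −0.86 against −0.16 for the 22 with a signal and no CPE. Over all genes the medians were −0.37 with and −0.41 without the letters, and no difference between such groups was tested.

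Between the P and NP datasets, no transcript of the 34 passed the test at an adjusted p below 0.1 (limma on log2(FPKM + 1), all adjusted p between 0.405 and 0.981), where 0.021% of the 14292 genes did. Cenpm was the only one with an unadjusted p below 0.05, and it was lower in P, so 1 of 34 fell in this class against 9.47% of all genes, and 0 of 34 were higher in P against 0.476% of all genes. No transcript had all P libraries above all NP libraries or all below, where 0.357% and 5.92% of all genes did. The log2 fold change was below 0 for 22 of the 34, or 64.7%, against 71.4% of all genes, and its median was −0.28 against −0.39. The mean FPKM was over 2 times higher in P for 8 (Cenpb, Cenpe, Cenpf, Cenpj, Cenpp, Cenpv, Kntc1 and Mis12) and over 2 times higher in NP for 7 (Cenpa, Cenph, Cenpi, Cenpm, Ndc80, Spc25 and Zw10), where 16.9% and 40.6% of all genes were.

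These tests were wide. The 95% interval of the log2 fold change included 0 for 33 of the 34 and reached from below −1 to above 1 for 17, so for these neither a doubling nor a halving could be told from no difference at this number of libraries. FPKM is relative to each library, and the scaling set the balance of directions. With quantile normalization the median of all genes moved from −0.39 to −0.018 and that of the 34 from −0.28 to 0.26, and with each library centred on its median the values were 0.57 and 0.68. The number of the 34 below 0 was then 11 and 7 in place of 22. Calls at an unadjusted p below 0.05 were 0 higher and 1 lower as deposited, 2 higher (Cenpf and Cenpp) and 1 lower with quantile normalization, against 2.55% and 4.04% of all genes, and 7 higher (Cenpb, Cenpe, Cenpf, Cenpk, Cenpn, Cenpp and Kntc1) and 1 lower with centring, against 19% and 1.24%. Cenpm was the lower one under all 3 scalings, and no adjusted p of the 34 passed in any of them.

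**Figure D3:**
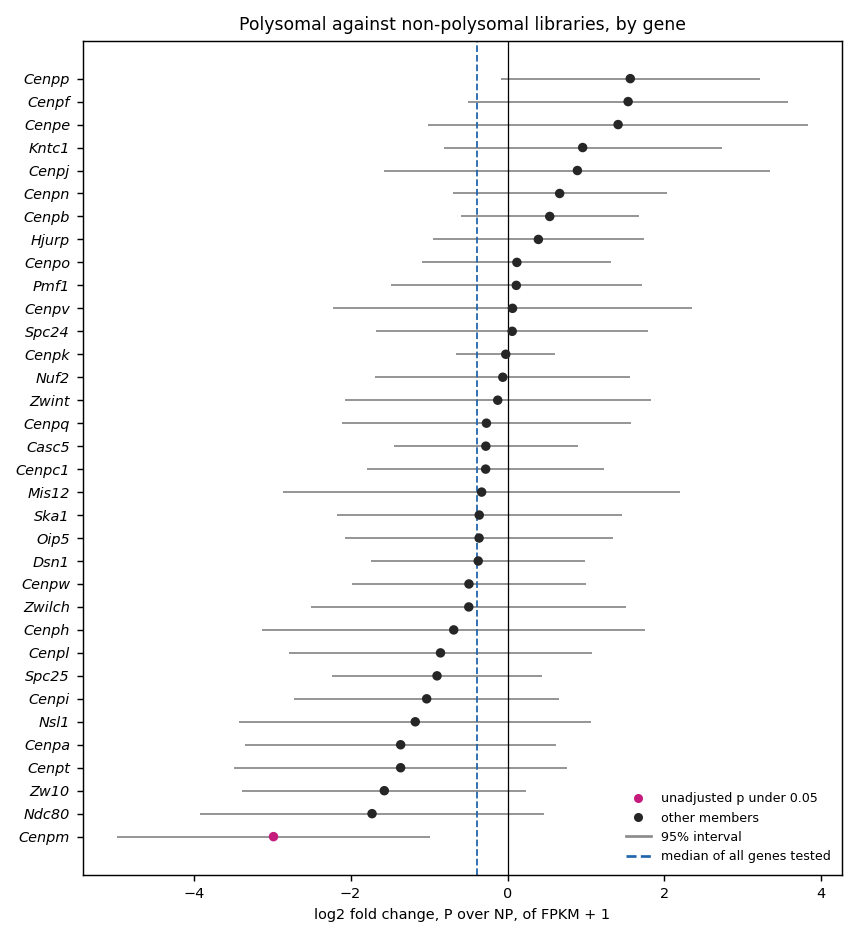
Log2 fold change of P over NP on FPKM + 1 for each of the 34 transcripts, from limma, with 95% intervals, and a dashed line at the median of all 14292 genes tested (−0.39). Only the interval of Cenpm lies wholly on 1 side of 0.

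**Figure D4:**
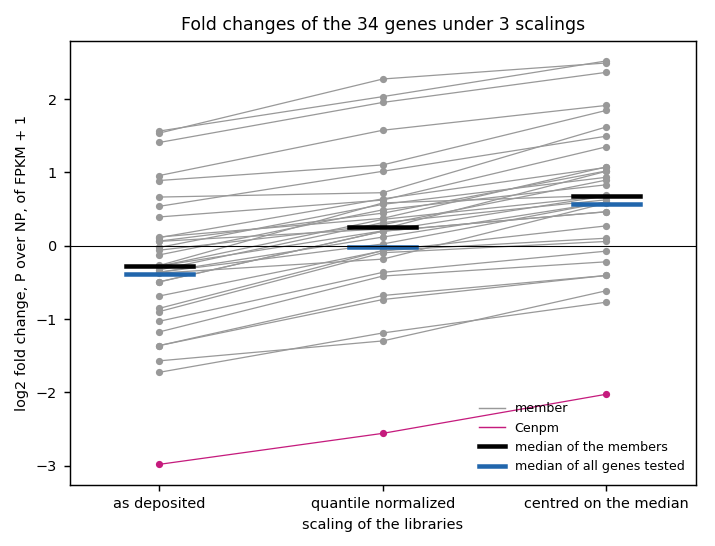
Log2 fold changes of the 34 transcripts with the libraries as deposited, quantile normalized and centred on the median, each line being 1 transcript, with bars for the median of the 34 and of all genes tested. The median of the 34 moves from −0.28 to 0.26 and 0.68 and that of all genes from −0.39 to −0.018 and 0.57, while Cenpm stays the lowest.

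In the inner kinetochore group, which links CENP-A chromatin to the outer kinetochore, 3 of 12 transcripts had a log2 fold change above 0 and 9 below, with a median of −0.39. Cenpm encodes a small GTPase-like protein of the CENP-H/I/K/M group (chromosome 15, 82233779 to 82244747, minus strand). Its NP libraries held 55.0, 160.2, 30.2 and 86.6 FPKM and its P libraries 22.5, 0.779, 3.75 and 30.8 FPKM, in the order of replicates 1 to 4. All P libraries but replicate 4 lay below all NP libraries, and P replicate 4 overlapped with NP replicate 3 by a small margin. The means were 83.0 ± 56.4 FPKM in NP and 14.5 ± 14.5 FPKM in P (SD, n = 4 each), a ratio of 0.174. The log2 fold change was −2.98 with a standard error of 0.93 and a 95% interval of −4.98 to −0.99 (limma, unadjusted p = 0.0063, adjusted p = 0.405). The exact permutation test over the 70 assignments of the libraries gave a 2-sided p of 0.0571, where 0.0286 is the smallest it can give. The P values rested on 127, 3, 20 and 99 reads, the lowest numbers that fit the FPKM steps. Leaving out single libraries kept the log2 fold change between −3.60 and −2.21 with adjusted p of 0.325 to 0.614 in limma.

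Cenpn (chromosome 8, 116921740 to 116941503, plus strand) was the most abundant transcript. Its NP libraries held 262, 162, 259.8 and 151 FPKM, and its P libraries 481, 700.1, 99.5 and 315 FPKM. P replicates 1, 2 and 4 lay above all NP libraries and P replicate 3 below all of them, so the P libraries spread around the NP range. The means were 209 ± 60.5 and 399 ± 254 FPKM (SD, n = 4 each), and the log2 fold change was 0.66 with an interval of −0.70 to 2.03 (limma, adjusted p = 0.689). Cenpo, whose product belongs to the CENP-O group (chromosome 12, 4196004 to 4234294, minus strand), was the most even of the abundant transcripts, with 77.2, 51.3, 46.4 and 32.9 FPKM in NP and 55.2, 39.7, 64.0 and 60.6 FPKM in P. Its libraries overlapped over nearly the whole range, with means of 51.9 ± 18.5 and 54.9 ± 10.7 FPKM (SD, n = 4 each) and a log2 fold change of 0.12, interval −1.08 to 1.32 (limma, adjusted p = 0.931). Of its exon sequence, 19.0% is shared with Adcy3 on the opposite strand, and the library kit does not mark strand.

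The other inner kinetochore transcripts ranged from 0.277 FPKM (Cenpk) to 35.8 FPKM (Cenpp) on average. Cenpp, another CENP-O group gene, had the highest log2 fold change of all 34, 1.57 with an interval of −0.088 to 3.22 (limma, unadjusted p = 0.0618, adjusted p = 0.521). Its NP libraries held 9.67 to 16.1 FPKM and its P libraries 146.9, 46.5, 11.6 and 29.5 FPKM, with P replicate 3 inside the NP range. Without P replicate 1 the value was 0.94 and without P replicate 3 it was 2.13. Exon sequence is shared with Ippk on the opposite strand over 12.3% of Cenpp. Cenpc1, the gene of CENP-C, which contacts both the CENP-A nucleosome and the MIS12 complex, was low, with a mean of 1.48 FPKM and a log2 fold change of −0.28 (limma, adjusted p = 0.875). Cenph, Cenpi, Cenpl, Cenpt and Cenpw had log2 fold changes of −1.36 to −0.49 and Cenpq and Cenpk of −0.27 and −0.023, with adjusted p of 0.64 or above in limma for all 7.

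Of the 3 genes for CENP-A and its loading, the chaperone gene Hjurp (chromosome 1, 88262471 to 88277633, minus strand) was the most abundant. Its NP libraries held 19.9, 30.5, 79.6 and 54.6 FPKM and its P libraries 46.3, 35.0, 69.4 and 72.2 FPKM. The P range lay within the NP range, with means of 46.1 ± 26.6 and 55.7 ± 18.1 FPKM (SD, n = 4 each) and a log2 fold change of 0.39, interval −0.95 to 1.73 (limma, adjusted p = 0.792). Cenpa itself had means of 17.3 ± 11.1 FPKM in NP and 7.58 ± 6.42 FPKM in P (SD, n = 4 each), with the lowest P value of 0.36 FPKM in replicate 3, and a log2 fold change of −1.36, interval −3.35 to 0.62 (limma, adjusted p = 0.624). Oip5, a subunit of the Mis18 complex that licenses CENP-A loading, was low and patchy, with 5.63 and 5.61 FPKM in replicate 2 of NP and P, at most 2.70 FPKM elsewhere and a 0 in 3 of the 8 libraries.

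In the KMN network, 2 of 10 transcripts had a log2 fold change above 0 and 8 below, with a median of −0.30, and no adjusted p was under 0.568 in limma. Dsn1, a MIS12 complex gene (chromosome 2, 156995265 to 157007154, minus strand), held 106, 122, 133 and 184 FPKM in NP and 236, 36.0, 163 and 80.1 FPKM in P. The P libraries spread on both sides of the NP range, with means of 136 ± 33.6 and 129 ± 88.7 FPKM (SD, n = 4 each), and the log2 fold change was −0.37, interval −1.74 to 0.99 (limma, adjusted p = 0.804), turning to 0.58 with centred libraries. Mis12, which gives that complex its name, was between 0.623 and 3.22 FPKM in P replicates 1 to 3 and at 83.3 FPKM in P replicate 4, against 2.56 to 13.9 FPKM in NP. Its mean was therefore higher in P while its log2 fold change was −0.33. Nsl1 was lower than in any NP library in P replicates 1 and 2 and higher than in all of them in P replicate 4, at 18.2 FPKM.

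Spc24 (chromosome 9, 21755442 to 21760286, minus strand), which anchors the NDC80 complex to the inner kinetochore, held 79.4, 67.3, 36.6 and 252 FPKM in NP and 49.1, 45.1, 60.2 and 436 FPKM in P. Replicate 4 was the highest library in both datasets and the other 6 libraries overlapped. The means of 109 ± 97.2 and 148 ± 192 FPKM (SD, n = 4 each) gave a log2 fold change of 0.060, interval −1.68 to 1.79 (limma, adjusted p = 0.976). Nuf2 (chromosome 1, 169497934 to 169531464, minus strand) held 12.6, 32.9, 43.6 and 69.3 FPKM in NP and 15.4, 48.5, 88.6 and 15.8 FPKM in P, with overlapping groups and a log2 fold change of −0.060, interval −1.69 to 1.57 (limma, adjusted p = 0.974). It turned to 0.29 with quantile normalization and 0.90 with centring. Ndc80, the gene of the main microtubule-binding subunit, had the lowest log2 fold change after Cenpm, −1.73 with an interval of −3.92 to 0.46 (limma, adjusted p = 0.568). Its P libraries held 2.90, 0, 0.613 and 17.5 FPKM against 4.85 to 18.9 FPKM in NP, so 3 of the 4 P libraries lay below all NP libraries and P replicate 4 within them. The 0 in P replicate 2 allows up to 0.425 FPKM, taking 3 reads on the searched length as the limit, which covers counting error only.

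In the RZZ complex, Zw10 (chromosome 9, 49055581 to 49078772, plus strand) held 216, 81.6, 159 and 35.3 FPKM in NP and 189.6, 19.7, 18.3 and 16.5 FPKM in P. P replicates 2 to 4 lay below all NP libraries and P replicate 1 above all of them but replicate 1. The means were 123 ± 80.1 and 61.0 ± 85.7 FPKM (SD, n = 4 each), with a log2 fold change of −1.57, interval −3.38 to 0.24 (limma, unadjusted p = 0.0837, adjusted p = 0.535). Zw10 was lower in P than in the NP library of the same number in 4 of 4 cases. The same held for Casc5, Cenpi, Cenpm and Cenpt. The share of all genes for which it held was not counted, and the labels do not state this pairing. With the replicate number as a block, the limma values of Zw10 were an unadjusted p of 0.0240 and an adjusted p of 0.362. In that fit 11.3% of all genes were lower in P at an unadjusted p below 0.05. Kntc1, the gene of the ROD subunit, had a log2 fold change of 0.96 with an interval of −0.82 to 2.73 (limma, adjusted p = 0.667), so the estimates of these 2 subunits lay on opposite sides of 0, and their difference was not tested. Zwilch, the last subunit, had 2.21 to 13.5 FPKM in NP and 0.263 to 8.98 FPKM in P.

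Ska1, whose product steadies kinetochores on microtubules, had 3.26 to 50.5 FPKM in NP and 8.51 to 29.7 FPKM in P. The 2 corona genes had log2 fold changes on the P side. Cenpf, which encodes a large coiled-coil protein, held 2.68 to 3.69 FPKM in NP and 13.0, 1.24, 42.5 and 14.7 FPKM in P, so 3 P libraries lay above and 1 below all NP libraries. Its log2 fold change was 1.54, interval −0.50 to 3.58 (limma, adjusted p = 0.588), and 2.35 without P replicate 2. Cenpe, the gene of a kinesin that moves chromosomes to the spindle equator, held 0.0985 to 19.3 FPKM in NP and 2.44 to 27.1 FPKM in P, with overlapping groups and a log2 fold change of 1.41, interval −1.01 to 3.83 (limma, adjusted p = 0.652).

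The 3 remaining Cenp genes each had a log2 fold change above 0, from 0.064 to 0.89, with no adjusted p under 0.691 in limma. Cenpj (chromosome 14, 56526761 to 56571846, minus strand) held 25.8, 4.06, 72.4 and 66.4 FPKM in NP and 6.15, 32.6, 71.3 and 455 FPKM in P. All P libraries but replicate 4 lay within the NP range, and the log2 fold change of 0.89, interval −1.57 to 3.35 (limma, adjusted p = 0.751), became −0.14 without that library. Cenpv, linked to the organisation of centromeric chromatin (chromosome 11, 62524946 to 62539261, minus strand), held 52.2, 45.5, 13.6 and 10.8 FPKM in NP and 45.1, 10.5, 3.23 and 225 FPKM in P. P replicate 4 again stood above the rest, and the log2 fold change of 0.064, interval −2.23 to 2.36 (limma, adjusted p = 0.981), became −0.96 without it. Cenpb, whose product binds a motif in centromeric satellite DNA, was at or under 2.35 FPKM in all libraries.

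The share of transcripts whose polysomal signal came mostly from 1 library was near that of all genes. For 11 of the 34 transcripts (32.4%), 1 P library held over 75% of the sum of the 4, where 31.2% of all genes did so, and for 3 of the 34 1 NP library did, where 20.4% did. P replicate 4 held over 75% for 5 transcripts, Mis12 (94.4%), Nsl1 (87.7%), Ndc80 (83.3%), Cenpj (80.5%) and Cenpv (79.2%), where 6.65% of all genes were, and it was the highest P library for 13 of 34, against 19.7% of all genes. P replicate 1 held over 75% for 4 (Cenpi, Cenpl, Cenpw and Zw10), where 11.05% of all genes were. Of the 34, 11 were listed at 0 in at least 1 library, with 6 of them (17.6%) in P replicate 2 and 4 (11.8%) in P replicate 4, where 28.6% and 36.5% of all genes were.

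Among other genes of the pathway none passed the test either. Of 36 symbols listed, some of them older and newer names of 1 gene, 29 had a row. Of these 29, 0 passed an adjusted p below 0.1 in limma, against 0.021% of all genes. None had an unadjusted p below 0.05, against 0.476% of all genes higher and 9.47% lower in P, and none had non-overlapping groups, against 0.357% and 5.92%. They had log2 fold changes of −1.77 to 1.20 and a median of −0.34. They comprised 4 inner kinetochore genes under other symbols (Apitd1, Itgb3bp, Mlf1ip and Stra13), 8 spindle checkpoint genes, 8 genes of the chromosomal passenger complex and of centromere protection and 9 kinetochore-microtubule factors. The highest levels were chosen after their values were seen, and their means over the 8 libraries exceeded those of all 34 kinetochore transcripts. Bub1b, the gene of the checkpoint kinase-like protein BUBR1, had a mean of 1307 FPKM, with 704 to 1102 FPKM in NP and 947 to 2721 FPKM in P. Aurkc, the germ-cell Aurora kinase gene, had a mean of 565 FPKM and Bub3, a checkpoint gene, of 311 FPKM. Bub3 was close to Cenpn at 304 FPKM, being higher in NP (338 against 209 FPKM) and lower in P (285 against 399 FPKM) on average. For Bub1b the log2 fold change was 0.72 with an interval of −0.45 to 1.89 (limma, adjusted p = 0.644).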

How the data were processed

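The authors depleted the RNA of the pooled gradient fractions of ribosomal RNA and primed it with random and oligo(dT) primers. They amplified the cDNA and made Nextera libraries, which hold no molecular identifiers and do not mark strand. Per the submitters' processing notes, reads were trimmed with Trim Galore 0.4.1, checked with FastQC 0.11.5 and mapped to GRCm38 with HISAT2 2.0.5, and genes were quantified in Seqmonk. The deposited values are FPKM on a linear scale, with 1 column per library and no further scaling between libraries. The authors' table of means and ratios of expressed genes and their table of DESeq2 results for P against NP were not used.

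A linear model without a block was fitted to log2(FPKM + 1) of P and NP in R 4.3.3, using lmFit and a trended eBayes of limma 3.58.1. It held the 14292 genes whose mean exceeded 0.1 FPKM in either dataset. Tests were 2-sided, with Benjamini-Hochberg adjustment over all these genes and a threshold of 0.1, and fold changes on this scale understate those of low genes. The script was tested on simulated data. Groups came from the sample titles. The study describes 4 independent biological replicates, and p-values measure the spread between these libraries. The permutation test was exact and used all 70 assignments of the libraries. Each library's scale was worked out from the spacing of its FPKM values, with annotated or searched gene lengths, for 14084 of 15585 genes above 0 (90.4%). Counting error comes on top for transcripts of few reads, and reads from amplified cDNA are not independent molecules.

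The genes, lists and tests were chosen with earlier results of these data known. Values in every library are given for genes with an unadjusted p below 0.05 or non-overlapping groups and for the 10 highest by mean, and the other genes by ranges and counts, with values of single libraries where these stood apart. Alternatives were a pseudocount of 0.1, other filters, quantile normalization, median centring, a replicate block, leaving out each library, and, added after seeing the data, voom on the recovered reads and levels without each library. Cell type markers were listed by hand. Symbols of the pathway lists with no row were not analysed here, and 1 further gene is not reported here. 3′ UTRs came from GENCODE transcripts, and printed sites were equal to the RefSeq GRCm38 genome sequence. Python 3.11.15 was used with scipy 1.17.1, pandas 2.3.3, matplotlib 3.10.9 and numpy 2.4.6.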

Additional observations from a re-analysis of the deposited data

Results flagged for a closer look

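For 4 of the 34 transcripts, 1 library stood far above the other 3 of its dataset, its gap to them on log2(FPKM + 1) being above Dixon's critical value for 4 samples. Zw10 was at 189.6 FPKM in P replicate 1 and at 16.5, 18.3 and 19.7 FPKM in the other P libraries. Spc24 was at 436 FPKM in P replicate 4 and at 45.1, 49.1 and 60.2 FPKM in the others, and Cenpi at 3.26 FPKM in P replicate 1 and at 0, 0.197 and 0.277 FPKM in the others. Zwint was at 64.9 FPKM in NP replicate 4 and at 6.50, 6.79 and 7.98 FPKM in the other NP libraries. In P, where it was not flagged, Zwint was also highest in replicate 4, at 39.0 FPKM against 10.7, 6.96 and 5.58 FPKM in replicates 1 to 3. Chance flags about 1 in 20 such groups, and over all 14292 genes tested 15.1% were flagged in NP and 20.2% in P, so 1 of 34 in NP and 3 of 34 in P lay under these shares. No cause was tested.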

How the results depend on the processing

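No transcript of the 34 was called at an adjusted p below 0.1 under any alternative run, and Cenpm kept a log2 fold change between −3.60 and −2.03 with adjusted p of 0.243 to 0.734 in limma. The count with an unadjusted p below 0.05, 1 as reported, was 3 with quantile normalization, 8 with median centring, 2 (Cenpm and Zw10, both lower in P, where 11.3% of all genes were) with the replicate block, and 1 to 3 when single libraries were left out. Without P replicate 2 the 3 were Cenpf, Cenpm and Cenpt, where 1212 of 14226 genes had such a p. Without P replicate 4 they were Cenpm, Ndc80 and Nsl1, where 1317 of 14262 genes did. Over all fits without single libraries, such genes numbered from 1098 of 14144 to 1598 of 14182. The median log2 fold change, −0.28, was 0.26 with quantile normalization, 0.68 with centring and −0.40 to −0.059 without single libraries. The count with non-overlapping groups, 0 as reported, was 1 (Cenpp) with quantile normalization, 3 with centring and 0 to 2 without single libraries. The share of all genes without overlap was not counted under these settings, so these counts are not read as a result about the 34. All 34 stayed above the detection limit except that a mean above 1 FPKM kept 33. Estimates near 0 changed sign: Dsn1 was 0.58 with centring and −0.77 to 0.12 without single libraries, Nuf2 0.29 with quantile normalization, 0.90 with centring and −0.54 to 0.28 without single libraries, and Spc24 −0.021 with voom on the recovered reads and −0.71 to 0.58 without single libraries. Without single libraries Cenpj lay between −0.14 and 1.85, Cenpo between −0.074 and 0.33 and Cenpv between −0.96 and 0.95. The cause of these changes was not tested. NP and P were pooled from the same gradients, but which NP and P libraries belong to 1 gradient is not given by their numbers in the labels or methods. Deviations of libraries with the same number correlated at 0.139, 0.0518, 0.251 and 0.155 over 11374 genes, and other pairs at −0.135 to 0.136. Each P library correlated best with the NP library of its own number, while NP replicate 2 correlated best with P replicate 1. As the pairing is not stated, the fit without it was kept as the first choice. With the block, the standard error of Zw10 was 0.61 in place of 0.84, and that of Cenpo was 0.56 in both fits. Over all genes the block called 1 gene at an adjusted p below 0.1, the fit without it 3, a pseudocount of 0.1 called 5, no filter 1 and voom 59 of 12870, none of them among the 34. With 4 libraries per dataset and few reads for the low transcripts, the 95% intervals of the log2 fold changes had a median width of 3.58.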
